A study of Mus musculus with 32 samples.

Results

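The monocyte chemokine genes Ccl2, Ccl7, Ccl12, Ccl8 and Ccl11 and the receptor gene Ccr2 were followed in 32 mouse liver tumour RNA libraries. They are 6 of the 54446 genes counted. Ccl2, Ccl7 and Ccl12 were selected on their measured levels, since they were higher than vehicle at the low and lower than vehicle at the high dose of regorafenib. Their values in those contrasts are therefore descriptions and were not tested. Ccl8 and Ccl11 were added for their place in the same gene cluster and Ccr2 as the receptor.

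BNL-MEA, a liver cancer line of the mouse, was implanted into the liver of Balb/c hosts with intact immunity, and all groups share this model. In the dose experiment, mice had vehicle (n = 4), regorafenib 5 mg/kg/day (low dose, n = 3) or 20 mg/kg/day of it (high dose, n = 3). Regorafenib blocks several kinases, the VEGF receptors among them, and was given by gavage. In the DC-101 experiment, mice had vehicle (n = 4), low dose regorafenib (n = 3) or DC-101 (n = 3), which is an anti-VEGFR2 antibody injected on days 1, 3 and 5 (800 ug). In the anti-PD1 experiment, mice had vehicle, low dose regorafenib, an anti-PD1 antibody or low dose regorafenib with anti-PD1 (the combination), with n = 3 each. In the labels an experiment is 1 batch, and comparisons were made within experiments except for the low dose, which was also compared over all 3. Nothing in the labels says that libraries of a group came from separate animals, so p-values measure the spread between these libraries. Ages were not given in the labels.

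CCL2, CCL7, CCL12 and CCL8 are secreted CC chemokines that attract monocytes. CCR2, a receptor on inflammatory monocytes, binds CCL2, CCL7 and CCL12 and is needed for these cells to leave the bone marrow. Mouse CCL8 acts mainly through another receptor, CCR8, and CCL11 (eotaxin) attracts eosinophils through CCR3.

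The 5 ligand genes lie on the plus strand of chromosome 11 (GRCm38) in the order Ccl2, Ccl7, Ccl11, Ccl12 and Ccl8. Ccl2 (ENSMUSG00000035385.5) spans chr11:82035571-82037453, and the starts of the others lie 10.1 kb (Ccl7), 22.3 kb (Ccl11), 66.3 kb (Ccl12) and 79.6 kb (Ccl8) further along. Ccl8 (ENSMUSG00000009185.2, chr11:82115185-82116799) is thus the ligand gene next to Ccl12 (ENSMUSG00000035352.3, chr11:82101845-82103400). Ccr2 (ENSMUSG00000049103.14) is elsewhere, at chr9:124101950-124113557. The genes around the cluster had few counts. Ccl1 had at most 16 counts in a library, Asic2 at most 17 and Tmem132e at most 56. Gm17268, annotated on the opposite strand over Ccl2, had a count of 0 in every library.

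Ccl12 and Ccl8 are neighbours whose levels parted at the high dose, so the 250 bases before the start of each are shown (RefSeq, GRCm38.p6, plus strand, 5′ to 3′). Of the 6 genes, 3 were in the promoter table (Ccl12, Ccl8 and Ccr2). Ccl12 is chr11:82101595-82101844 and Ccl8 is chr11:82114935-82115184, and capitals mark the TATA box letters TATAAA.
Ccl12: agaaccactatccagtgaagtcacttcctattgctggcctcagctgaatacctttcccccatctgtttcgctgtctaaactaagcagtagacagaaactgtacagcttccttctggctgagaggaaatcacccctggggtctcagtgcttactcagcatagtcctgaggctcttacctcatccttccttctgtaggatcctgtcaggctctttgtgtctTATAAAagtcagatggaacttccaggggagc
Ccl8: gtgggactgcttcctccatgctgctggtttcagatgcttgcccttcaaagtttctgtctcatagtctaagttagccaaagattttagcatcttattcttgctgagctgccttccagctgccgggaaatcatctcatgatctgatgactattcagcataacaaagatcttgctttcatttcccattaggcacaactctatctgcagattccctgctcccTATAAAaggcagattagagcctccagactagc

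Both windows held 1 match to TATAAA, which began 31 bases before the start of Ccl12 and 32 bases before that of Ccl8. On either strand, 12.4% of the 32851 promoter windows of this length held one, and that of Ccr2 did not. The other letters searched on both strands were AP-1 (TGANTCA, 6.75% of all windows), CRE (TGACGTCA, 1.55%), GAS (TTCNNNGAA, 7.02%), the ISRE core (TTTCNNTTT, 9.37%) and the NF-kB consensus (3.9%). None of them matched in these windows of Ccl12, Ccl8 or Ccr2.

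A library held between 16.8 M and 27.7 M counts. Counts of the 6 genes ranged from 183 to 3933 for Ccl2, 28 to 1636 for Ccl7, 34 to 4574 for Ccl12, 40 to 2357 for Ccl8, 3 to 197 for Ccl11 and 192 to 10525 for Ccr2. Levels are log2 CPM, counts scaled by TMM to a common library size. The tumours differed in hepatocyte genes, whose list score (the mean log2 CPM of 10 genes, Alb and Apoa1 among them) ran from 0.48 to 12.73. All 11 macrophage genes of the list used had a count in every library, while of the eosinophil list Epx was at 0 in 23 libraries and Il5ra in 22. These are bulk tumours, in which fewer cells of a type and less RNA per cell cannot be told apart.

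In the dose experiment, Ccl12 stood at 4.45, 4.56, 4.59 and 3.86 log2 CPM with vehicle, at 6.52, 6.46 and 6.45 at the low dose and at 0.93, 3.19 and 2.32 at the high dose. The 3 groups did not overlap, with the low dose on top and the high dose at the bottom. The fitted log2 difference from vehicle was 2.05 (SE 0.41) at the low dose and -1.97 (SE 0.44) at the high dose.

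Ccl7 followed the same order, with 2.93, 3.12, 2.84 and 2.43 log2 CPM with vehicle, 4.51, 4.18 and 4.75 at the low dose and 0.66, 2.04 and 0.93 at the high dose. Its log2 differences from vehicle were 1.63 (SE 0.34) and -1.52 (SE 0.36). Ccl2 had the smallest spread between doses of these genes, with 4.47, 4.77, 4.34 and 4.19 log2 CPM with vehicle, 6.14, 5.38 and 5.52 at the low dose and 3.30, 3.75 and 3.87 at the high dose. The groups of Ccl2 did not overlap either, and its log2 differences were 1.23 (SE 0.23) and -0.79 (SE 0.24). Between the high and the low dose, Ccl12 was lower by a factor of 16.3, Ccl7 by 8.84 and Ccl2 by 4.06. High dose replicate 2 was the highest of its group for Ccl12, whose log2 difference without it was -4.67 from the low dose and -2.60 from vehicle.

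**Figure D1:**
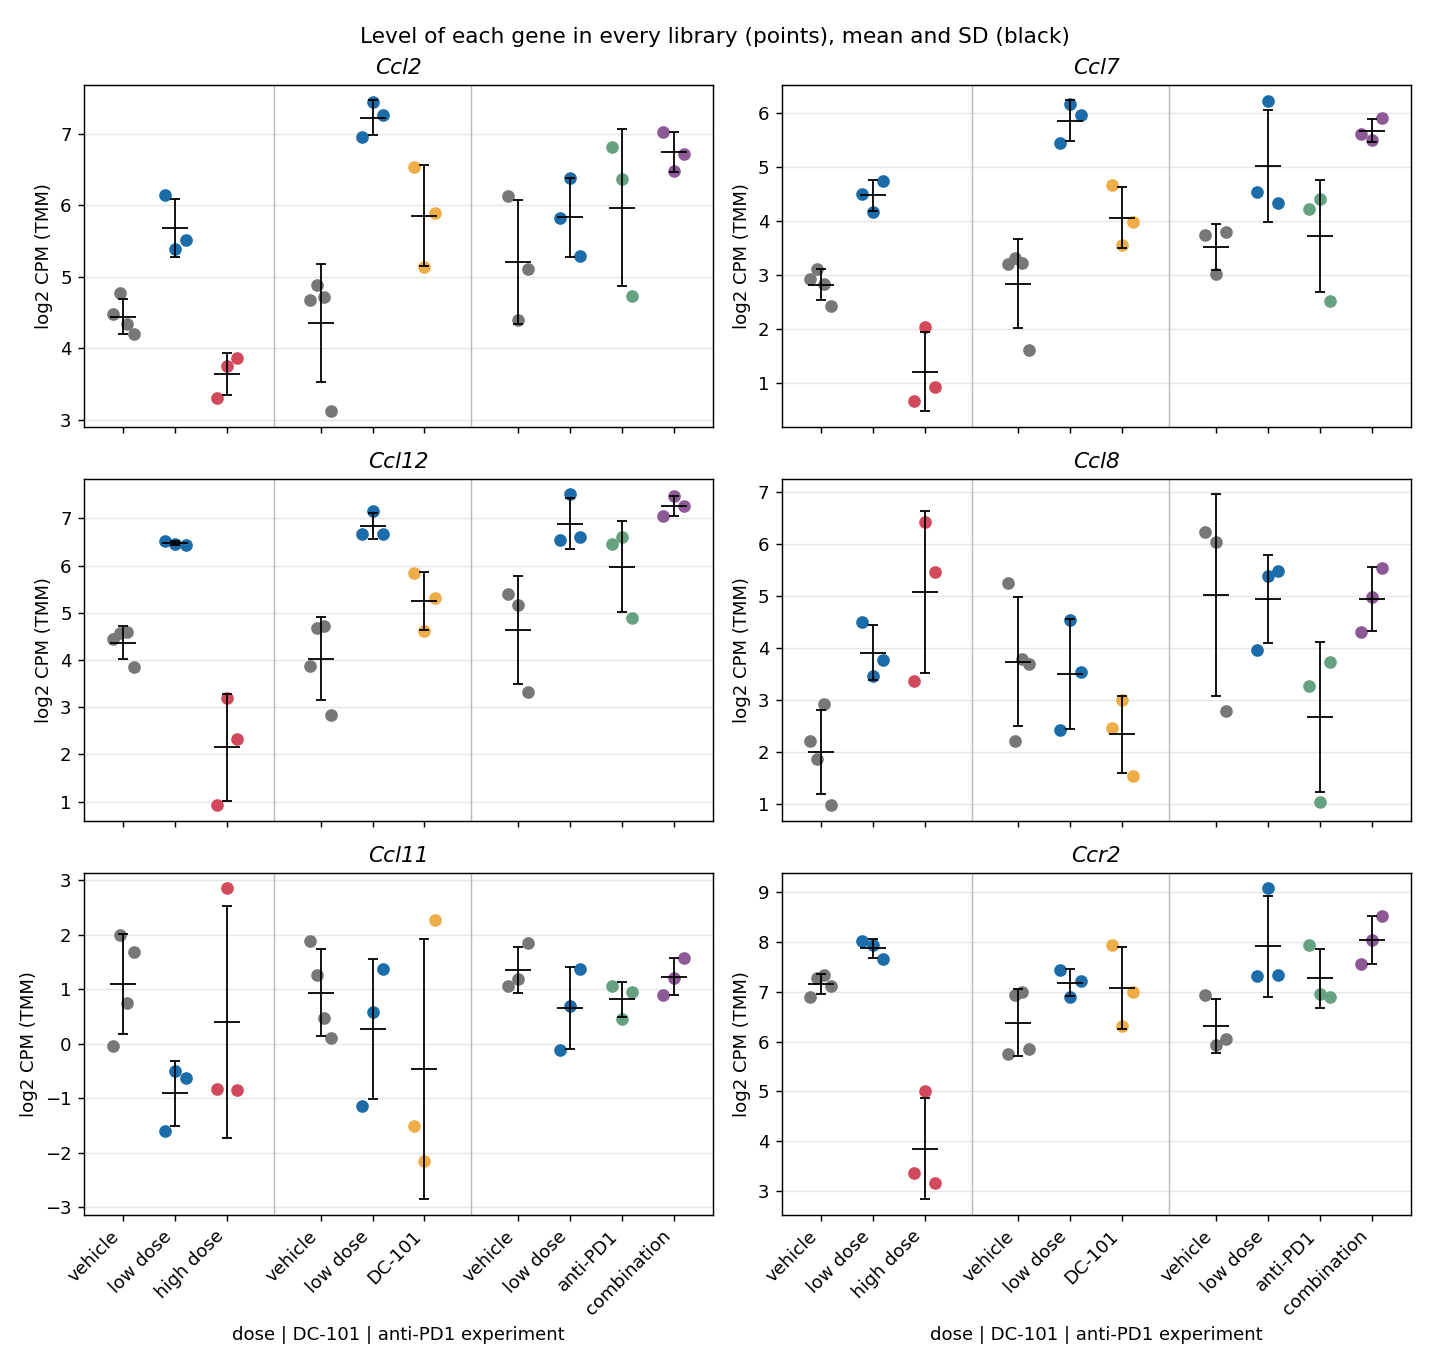
Level of each gene (log2 CPM after TMM scaling, y axis) in every library, by group and experiment (x axis). Points are libraries and black marks are the mean and SD. Within the dose experiment, Ccl2, Ccl7, Ccl12 and Ccr2 have their lowest means at the high dose. Ccl8 has its highest mean of that experiment there, overlapping the low dose.

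Ccr2 fell and Ccl8 rose at the high dose. Ccr2 stood at 6.90, 7.27, 7.33 and 7.12 log2 CPM with vehicle, at 8.02, 7.93 and 7.66 at the low dose and at 3.37, 5.01 and 3.17 at the high dose. The high dose libraries lay below all others of the experiment. Against vehicle, Ccr2 changed by a log2 value of -3.05 (SE 0.45), an 8.27-fold fall with an adjusted p of 0.017 in edgeR's quasi-likelihood test over 16525 genes. Against the low dose it changed by -3.73 (SE 0.47, adjusted p = 0.00775).

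Ccl8, the neighbour of Ccl12, went the other way. It stood at 2.21, 1.87, 2.92 and 0.98 log2 CPM with vehicle, at 4.50, 3.47 and 3.77 at the low dose and at 3.37, 6.42 and 5.45 at the high dose. All high dose libraries were above all vehicle libraries, and they overlapped the low dose. The log2 change at the high dose was 3.42 (SE 0.67), a 10.7-fold rise with an adjusted p of 0.03. Without high dose replicate 2 it was 2.64 with an adjusted p of 0.0597. High against low dose, Ccl8 differed by 1.61 (SE 0.69, adjusted p = 0.162), which did not pass, and by 0.82 without high dose replicate 2 (adjusted p = 0.446).

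Ccl11 was at -0.04, 1.99, 0.75 and 1.68 log2 CPM with vehicle, at -1.59, -0.49 and -0.63 at the low dose and at -0.83, 2.85 and -0.85 at the high dose. A single high dose library was high and the others lay below every vehicle library. The change at the high dose was 0.19 (SE 0.94, adjusted p = 0.897), and without high dose replicate 2 it was -2.26 (adjusted p = 0.0804). High against low dose, it was 2.53 (SE 1.09, adjusted p = 0.162), and without high dose replicate 2 it was 0.05 (adjusted p = 0.97).

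Of the 3 genes tested at the high dose against vehicle, Ccl8 and Ccr2 passed the adjusted p of 0.05, beside 15.6% of all genes. High against low dose, Ccr2 alone passed, beside 4.22% of all genes. The call of Ccr2 against vehicle was lost when any 1 of the 4 vehicle libraries was left out (adjusted p up to 0.0565), with a change between -3.86 and -2.75 over all 10 libraries left out in turn. The call of Ccl8 was lost without any 1 vehicle library, low dose replicate 1 or 2, or high dose replicate 2 (adjusted p up to 0.0867). With the replicate number as a block, neither passed (adjusted p = 0.192 for each).

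**Figure D2:**
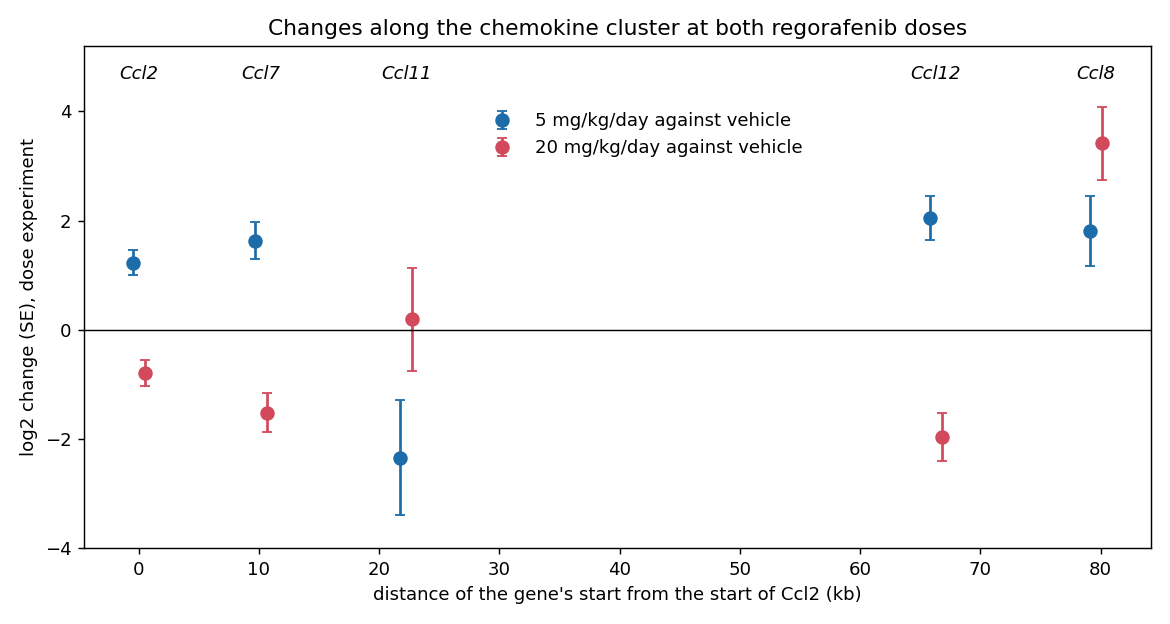
Log2 change against vehicle with its SE (y axis) of the 5 ligand genes in the dose experiment, by the distance of each gene's start from that of Ccl2 in kb (x axis). At 20 mg/kg/day (red) Ccl12 was at -1.97 and its neighbour Ccl8 at 3.42, while at 5 mg/kg/day (blue) both were above 0. Ccl2, Ccl7 and Ccl12 were selected on these contrasts.

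At the high dose, most genes of the macrophage list fell, as Ccr2 did. Of the 11 macrophage genes, 8 fell past the threshold and none rose past it, beside 15.6% of all genes called. The median log2 change was -1.29, beside 0.02 over all genes, and 2 macrophage genes had a positive value. The falls were led by Fcgr1 (an Fc receptor, -1.85, adjusted p = 0.0236) and Mrc1 (the mannose receptor CD206, -1.42, adjusted p = 0.0277). Csf1r (the CSF1 receptor, -1.68, adjusted p = 0.0308) followed. Of 8 monocyte genes tested, 3 fell (median -0.86), namely Cd14 (a lipopolysaccharide co-receptor, -1.25), Ms4a4c (-2.53) and Plac8 (-1.09), beside 15.6% of all genes called. The monocyte count was 1 with library totals, 2 with no filter or the hepatocyte covariate, 0 with the replicate block or only the groups compared, and 0 to 5 without 1 library. The macrophage score was 5.50 to 6.75 in the high dose libraries and 6.58 to 7.28 with vehicle. The part of macrophage number in the Ccr2 fall was not tested.

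The hepatocyte score ran from 7.34 to 12.73 at the high dose and from 5.32 to 8.41 with vehicle. All 10 of its genes had a positive change (median 3.65). Of these, 1 passed the threshold, the cytochrome Cyp2e1 at 5.41, beside 15.6% of all genes called. Without 1 library, 0 to 9 of them rose. With this score as a covariate, the change was 4.11 for Ccl8 (adjusted p = 0.0386) and -3.09 for Ccr2 (adjusted p = 0.0365). With library totals in place of TMM, the median of all genes moved from 0.02 to -0.13, and the changes were 3.39 for Ccl8 (adjusted p = 0.0542) and -3.16 for Ccr2 (adjusted p = 0.0296). With that scaling 0 macrophage genes passed, as with the hepatocyte covariate, the replicate block or only the groups compared. With no filter 3 fell, and without 1 library at a time between 0 and 8 fell and between 0 and 2 rose.

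Of the 6 chemokine receptor genes reported, 2 fell at the high dose (Ccr1 and Cx3cr1), beside 15.6% of all genes called, and 4 had a positive value (median 0.51). The median was -0.48 with limma-voom and -2.23 with the hepatocyte covariate, both calls were lost with the replicate block or only the groups compared, and without 1 library 0 to 2 genes fell and 0 or 1 rose. Ccr1 (a receptor of CCL3 and CCL5) changed by -2.73 (adjusted p = 0.0143) and Cx3cr1 (the fractalkine receptor of patrolling monocytes and resident macrophages) by -2.51 (adjusted p = 0.0143). Of 9 other chemokine genes tested, 2 rose, namely Ccl22 (a ligand of CCR4, 2.55, adjusted p = 0.0428) and the T cell attractant Ccl5 (1.46, adjusted p = 0.0449), with a list median of -0.07 and 15.6% of all genes called. Both calls were lost in all settings run but DESeq2 and RLE scaling, and 0 to 2 genes rose without 1 library.

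Of 10 inducers and NF-kB targets tested, the cytokine gene Il1b fell (-2.75, adjusted p = 0.0143) and no other passed (median -0.09), beside 15.6% of all genes called. That call was lost with the replicate block or only the groups compared, and without 1 library 0 or 1 of these genes fell and 0 or 1 rose. None of the 9 interferon response genes passed (median 0.26), and 0 to 2 rose without 1 library. Of 5 T cell genes, Cd3e (1.86) and Cd3d (1.61) rose, beside 15.6% of all genes called. For this list, limma-voom called 1 gene, and fits without 1 library called 0 to 5. Library totals, no filter, the hepatocyte covariate, the replicate block and only the groups compared called 0. Of 6 endothelial genes, Emcn and Cldn5 fell, both by -1.86, beside 15.6% of all genes called. The list median was -0.87, and 1 gene had a positive value. Library totals and the hepatocyte covariate left 1 call, and fits without 1 library 0 to 4. No filter, the replicate block and only the groups compared left 0. No gene of the neutrophil (5 tested), eosinophil (1 tested) or fibroblast (7 tested) lists passed. Without 1 library, 0 or 1 neutrophil gene rose, and 0 to 2 fibroblast genes rose and 0 to 2 fell.

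The low dose was given in 3 experiments. In the DC-101 experiment, Ccl2 stood at 4.67, 4.88, 4.72 and 3.12 log2 CPM with vehicle and at 6.96, 7.44 and 7.26 at the low dose. The groups were apart, and the log2 difference was 2.74 (SE 0.44). Ccl7 and Ccl12 were also apart, with log2 differences of 2.92 (SE 0.43) and 2.65 (SE 0.45).

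In the anti-PD1 experiment, Ccl12 stood at 5.40, 5.18 and 3.33 log2 CPM with vehicle and at 6.54, 7.51 and 6.62 at the low dose, without overlap and with a log2 difference of 2.11 (SE 0.55). Ccl7 stood at 3.74, 3.02 and 3.81 against 4.54, 6.23 and 4.33, with a difference of 1.77 (SE 0.58) that was 0.84 without low dose replicate 2. Ccl2 overlapped between these groups, at 6.12, 4.40 and 5.10 against 5.82, 6.38 and 5.28, with a difference of 0.53 (SE 0.53, 0.17 to 1.08 without 1 library). Over the 3 experiments, the log2 differences were 1.56 (SE 0.32) for Ccl2, 2.13 (SE 0.29) for Ccl7 and 2.28 (SE 0.26) for Ccl12.

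Ccr2, tested in the same fit of 15562 genes, was 2.05-fold higher at the low dose over the 3 experiments (log2 change 1.04, SE 0.26, adjusted p = 0.0493), beside 1.77% of all genes past the threshold. Its vehicle libraries ran from 5.74 to 7.33 log2 CPM (median 6.93, n = 11) and its low dose libraries from 6.89 to 9.07 (median 7.43, n = 9), so the groups overlapped, and all 9 low dose libraries were above the vehicle mean. The call rested on single libraries: it was lost in 17 of 20 fits that left out 1 library, and kept only without vehicle replicate 2 or 3 of the DC-101 experiment or, beside anti-PD1, low dose replicate 2. The change was 0.74 to 1.12 in these fits, and with the replicate block it was 0.93 (adjusted p = 0.161).

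Within experiments, the log2 change of Ccr2 at the low dose was 0.68 (SE 0.39, adjusted p = 0.991) in the dose experiment, 0.70 (SE 0.43, adjusted p = 0.413) beside DC-101 and 1.81 (SE 0.54, adjusted p = 0.265) beside anti-PD1. None of these passed in edgeR, and DESeq2 called the last (adjusted p = 0.0388). The last was 0.91 without low dose replicate 2.

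Ccl8 did not pass at the low dose. Over the 3 experiments its log2 change was 0.35 (SE 0.51, adjusted p = 0.79), made up of 1.81 (SE 0.64, adjusted p = 0.917) in the dose experiment, -0.36 (SE 0.72, adjusted p = 0.824) beside DC-101 and -0.52 (SE 0.80, adjusted p = 0.872) beside anti-PD1. The difference between experiments was tested directly and did not pass (adjusted p = 0.555 for Ccl8, 0.632 for Ccl11 and 0.639 for Ccr2, with 0% of 15562 genes called and 1481 genes at an unadjusted p under 0.05). Ccl11 had a log2 change of -1.15 (SE 0.41, adjusted p = 0.164) over the 3 experiments.

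In edgeR, none of Ccl8, Ccl11 and Ccr2 passed for the low dose within an experiment. That test called 0% of genes in the dose experiment (817 genes at an unadjusted p under 0.05), 0.0248% beside DC-101 and 0% beside anti-PD1 (1964 genes at an unadjusted p under 0.05).

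Of the lists over the 3 low dose experiments, 1 of 10 inducers and NF-kB targets passed, the adhesion molecule gene Vcam1 (0.67, adjusted p = 0.00711, list median 0.53). Of the interferon response genes 0 of 9 passed, with 9 positive changes and a median of 0.98 beside 0.03 over all genes. The median was 0.96 in the dose experiment and 1.81 beside DC-101 (9 of 9 positive in each), but -0.02 beside anti-PD1 (3 of 9 positive), and 0 to 4 of these genes passed without 1 library. Cd14 of the monocyte list (0.71, adjusted p = 0.0307) and Fcgr1 of the macrophage list (0.73, adjusted p = 0.0405) rose, beside 1.77% of all genes, while the list medians were 0.12 and 0.21. In the dose experiment 11 of 11 macrophage genes were positive at the low dose (median 0.75, none past the threshold) and the macrophage score was 7.73 to 7.81, against 6.58 to 7.28 with vehicle, and its part in the chemokine values was not tested. The macrophage median was -0.16 beside DC-101 and -0.09 beside anti-PD1. The monocyte and macrophage lists had 0 or 1 gene called without 1 library, and 0 with the hepatocyte covariate. Of 6 endothelial genes, 4 fell, with Cldn5 (a tight junction gene, -2.45), Cdh5 (VE-cadherin, -1.25) and Emcn (-1.39) in the lead. No gene of the other chemokine, neutrophil, eosinophil, fibroblast, hepatocyte or T cell lists passed. The hepatocyte list had a median of 1.26, with 10 of 10 changes positive, but beside anti-PD1 its median was -2.11, with 0 of 10 positive.

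DC-101, an antibody to a single receptor, was compared with the same vehicle libraries as the low dose. Since Ccl2, Ccl7 and Ccl12 were chosen partly on those vehicle libraries, their differences from vehicle are descriptions here too. The mean hepatocyte score was 7.40 with DC-101, 8.22 at the low dose and 3.12 with vehicle, and its part in these values was not tested. Ccl2 stood at 6.54, 5.13 and 5.89 log2 CPM with DC-101, above all 4 vehicle libraries, with a log2 difference of 1.45 (SE 0.43). Ccl7 stood at 4.67, 3.55 and 3.98, also above its vehicle libraries at 3.21, 3.32, 3.23 and 1.61, with a difference of 1.13 (SE 0.42). Ccl12 overlapped, at 5.84, 4.62 and 5.31 against 3.86, 4.68, 4.71 and 2.84, with a difference of 1.11 (SE 0.44).

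Ccl8 had a negative value, with 2.47, 3.01 and 1.54 log2 CPM with DC-101 against 5.24, 2.22, 3.79 and 3.69 with vehicle (log2 change -1.69, SE 0.76, adjusted p = 0.38). Without vehicle replicate 1 it was -0.96. Ccr2 was at 0.72 (SE 0.43, adjusted p = 0.481), or 0.20 without DC-101 replicate 1, and Ccl11 at -0.33 (SE 1.10, adjusted p = 0.924). Ccl8, Ccr2 and Ccl11 did not pass, and edgeR called 0% of 16138 genes, with 2131 genes at an unadjusted p under 0.05. DESeq2 called 372 genes and limma-voom 0. Without vehicle replicate 4, the difference of Ccl2 was 1.18 and that of Ccl7 0.86.

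The low dose stood above DC-101 for the 3 selected genes, by a log2 difference of 1.30 (SE 0.47) for Ccl2, 1.79 (SE 0.46) for Ccl7 and 1.54 (SE 0.48) for Ccl12, with no overlap between the groups. Ccr2 stood at 7.43, 6.89 and 7.22 log2 CPM at the low dose and between 6.31 and 7.94 with DC-101, a difference of -0.02 (SE 0.46, adjusted p = 0.998). Ccl8 differed by 1.33 (SE 0.78, adjusted p = 0.702), or 0.65 without low dose replicate 2, and Ccl11 by -0.22 (SE 1.18, adjusted p = 0.99). None of these 3 passed, and 0% of genes were called, with 1364 at an unadjusted p under 0.05.

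**Figure D3:**
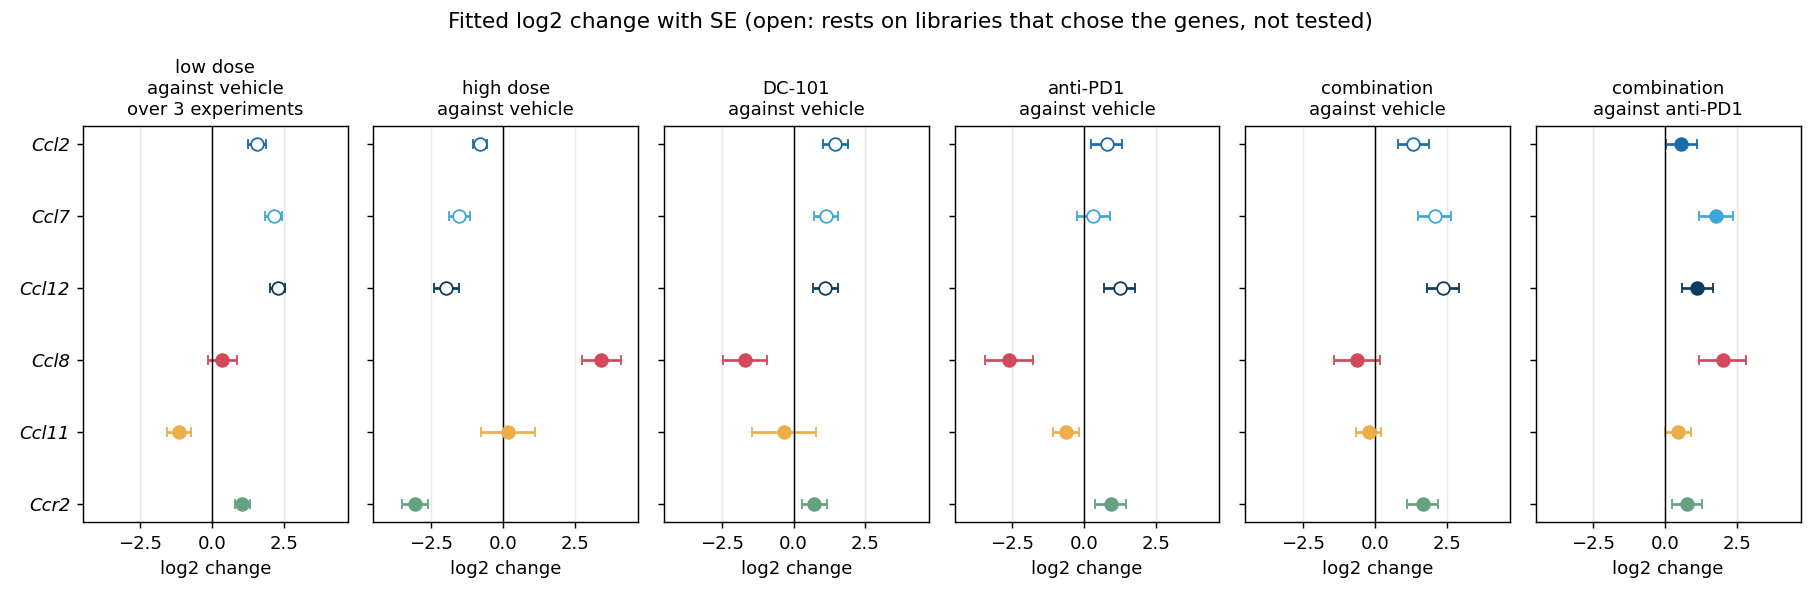
Fitted log2 change with its SE (x axis) of each gene (y axis) in 6 comparisons. Open points rest on libraries that selected Ccl2, Ccl7 and Ccl12 and were not tested. Ccl8 is at 3.42 and Ccr2 at -3.05 at the high dose, and edgeR called no gene in the 4 comparisons on the right, where DESeq2 called 372, 614, 150 and 192 genes.

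The anti-PD1 experiment asked what low dose regorafenib added to anti-PD1. The contrasts that selected the genes did not use the combination and anti-PD1 libraries, so all 6 were tested between these groups. Earlier results of these data were known when the genes were chosen. Ccl7 stood at 5.62, 5.50 and 5.92 log2 CPM with the combination and at 4.23, 4.42 and 2.53 with anti-PD1. The groups were apart, and the log2 change was 1.77 (SE 0.58, adjusted p = 0.472).

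Ccl12 stood at 7.05, 7.48 and 7.27 against 6.46, 6.60 and 4.88, apart and with a log2 change of 1.12 (SE 0.54, adjusted p = 0.6). Ccl2 overlapped, at 7.03, 6.48 and 6.71 against 6.81, 6.36 and 4.73, with a change of 0.56 (SE 0.53, adjusted p = 0.801). Anti-PD1 replicate 3 was the lowest of its group for Ccl2, Ccl7 and Ccl12, and without it the change of Ccl2 was 0.17 and that of Ccl12 0.75.

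Ccl8 stood at 4.30, 4.99 and 5.53 log2 CPM with the combination and at 3.26, 1.04 and 3.72 with anti-PD1, apart and with a change of 1.99 (SE 0.83, adjusted p = 0.541). Ccr2 overlapped, at 7.55, 8.03 and 8.52 against 7.94, 6.96 and 6.90, with a change of 0.75 (SE 0.53, adjusted p = 0.743) that was 0.45 to 1.16 without 1 library. Ccl11 was at 0.44 (SE 0.45, adjusted p = 0.812). All 6 values were positive, beside a median of -0.00 over all genes. Ccl2, Ccl7, Ccl12 and Ccr2 varied together between libraries, so these are not 6 separate observations. None of the 6 passed, and edgeR called 0% of 16615 genes, with 1443 genes at an unadjusted p under 0.05. DESeq2 called 192 genes, none of them a member (Ccl7 had an adjusted p of 0.0943), and limma-voom called 0.

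In the same comparison, 0 genes of any list passed. The hepatocyte genes had a median of 2.59 with 10 of 10 positive, the T cell genes 1.75 with 5 of 5 positive and the interferon response genes 0.73 with 9 of 9 positive, beside -0.00 over all genes. The hepatocyte score was 6.92 to 9.83 with the combination and 4.86 to 6.49 with anti-PD1. The macrophage list had a median of -0.18 and the monocyte list 0.19. The part of these in the chemokine values was not tested.

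Anti-PD1 alone and the combination were also set against vehicle, with vehicle libraries shared by both and by the low dose. Those vehicle libraries took part in the choice of Ccl2, Ccl7 and Ccl12, whose differences from them are descriptions. With anti-PD1, Ccl12 was at 1.24 (SE 0.54), Ccl2 at 0.78 (SE 0.53, 0.35 to 1.32 without 1 library), Ccl7 at 0.32 (SE 0.57, 0.00 to 0.72 without 1 library) and Ccr2 at 0.92 (SE 0.53, adjusted p = 0.468, 0.52 to 1.26 without 1 library). Ccl8 was at -2.61 (SE 0.85, adjusted p = 0.256), with vehicle libraries at 6.23, 6.03 and 2.78 log2 CPM that overlapped those of anti-PD1. Ccl11 was at -0.64 (SE 0.45, adjusted p = 0.558). The hepatocyte score was 4.86 to 6.49 with anti-PD1 and 8.66 to 9.16 with vehicle, all 10 genes had a negative change (median -2.54), and the part of this in the chemokine values was not tested. Neither Ccr2, Ccl8 nor Ccl11 passed in edgeR, which called 0% of genes (2269 had an unadjusted p under 0.05). DESeq2 called Ccl8 here (adjusted p = 0.0332).

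With the combination, Ccl12 was at 2.37 (SE 0.56), Ccl7 at 2.09 (SE 0.58), Ccl2 at 1.34 (SE 0.54) and Ccr2 at 1.67 (SE 0.54, adjusted p = 0.483). Ccl8 was at -0.62 (SE 0.80, adjusted p = 0.856) and Ccl11 at -0.21 (SE 0.44, adjusted p = 0.918). Of these, Ccr2, Ccl8 and Ccl11 were tested and did not pass, with 0% of genes called by edgeR and 1362 at an unadjusted p under 0.05. The T cell genes had a median of 1.24 (5 of 5 positive) and the interferon response genes 0.65 (8 of 9 positive). The endothelial median was -0.57 (0 of 6 positive) and the monocyte median -0.62 (3 of 9 positive), beside -0.05 over all genes. The part of these in the chemokine values was not tested.

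Over the 10 groups, mean log2 CPM of Ccr2 ran from 8.03 with the combination to 3.85 at the high dose. Each group overlapped the next one down, except that the lowest, the high dose, stood apart from the vehicle group of the anti-PD1 experiment at 6.31. For Ccl12 the order began with the combination (7.27), low dose beside anti-PD1 (6.89) and low dose beside DC-101 (6.83) and ended with the high dose (2.15). For Ccl8 it began with the high dose (5.08, SD 1.56), close to vehicle of the anti-PD1 experiment (5.01, SD 1.93). It ended with vehicle of the dose experiment, and every neighbour in that order overlapped. The high dose libraries of Ccl8 were at 3.37, 6.42 and 5.45, so its first place rested on replicate 2. Each experiment is a batch scaled on its own, so these orders across experiments are descriptions and were not tested.

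Levels were compared between ligands per length, as CPM per kb of exon. With the combination, Ccl12 had a mean of 289 CPM per kb, Ccl2 95.1, Ccl7 64.4, Ccl8 63.4 and Ccl11 2.12. At the high dose the means were led by Ccl8 (highest in all 3 libraries), at 90.9 CPM per kb, Ccl2 at 11, Ccl12 at 9.81, Ccl7 at 3.06 and Ccl11 at 2.5. The 3 high dose libraries ran from 20.1 to 167 CPM per kb for Ccl8 and from 3.39 to 16.9 for Ccl12. Ccl12 was above Ccl2 in replicate 2 and below it in the others.

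As a share of the summed CPM per kb of the 5 ligands, Ccl8 made up 72.2% ± 12 (SD, n = 3) at the high dose, 10.6% ± 4.56 (SD, n = 4) with vehicle and 11.1% ± 2.97 (SD, n = 3) at the low dose of the dose experiment. Ccl12 made up 8.77% ± 0.937, 49.9% ± 1.63 and 61.5% ± 5.46 in the same groups. Vehicle tumours of the other experiments varied widely in the share of Ccl8, which was 9.25% to 53.6% beside DC-101 and 16.1% to 56.6% beside anti-PD1. Ccl11 never passed 5.15%. Shares do not depend on library scaling. The sum holds Ccl2, Ccl7 and Ccl12, which were selected partly for being lower at the high dose. That choice by itself raises the share of Ccl8 there, so the shares are descriptions and were not tested.

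**Figure D4:**
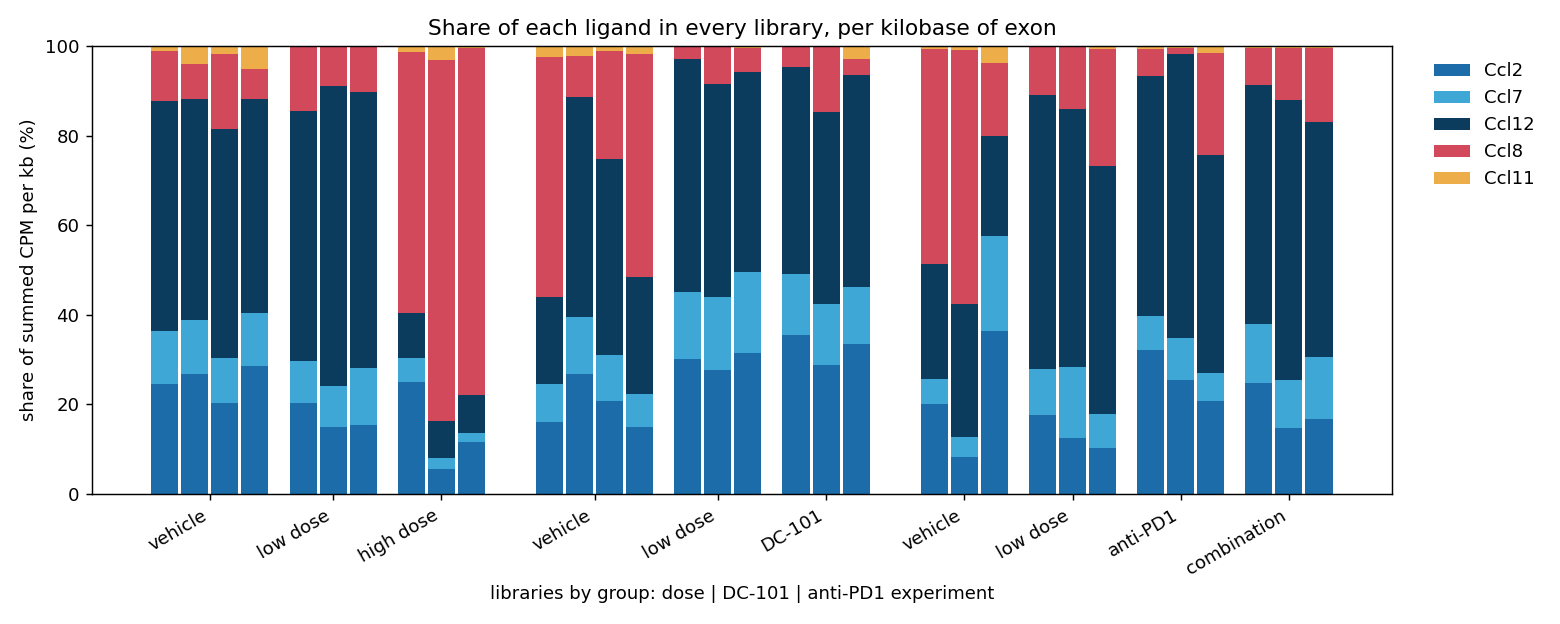
Share of each ligand in the summed CPM per kb of exon of the 5 ligands (y axis, %) in every library (bars), by group and experiment (x axis). Ccl8 takes 58.4% to 80.6% in the 3 high dose libraries, and Ccl12 takes 8.14% to 9.84% there. Ccl2, Ccl7 and Ccl12 were selected partly for being lower at the high dose.

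With the group means removed, libraries still varied together in some of the genes. Of the 15 pairs of members, 6 had an adjusted permutation p under 0.05 over the 32 libraries: the 3 pairs among Ccl2, Ccl7 and Ccl12, and each of these with Ccr2. Ccl2 and Ccl7 had r = 0.82 and rho = 0.81 (permutation p = 8e-05 and 0.0001, adjusted p = 0.0012 and 0.0015), and r = 0.72 without the 2 libraries farthest from the median of Ccl2. Within experiments, r was 0.46 in the dose, 0.98 in the DC-101 and 0.81 in the anti-PD1 experiment.

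Ccl7 and Ccr2 had r = 0.67 and rho = 0.62 (permutation p = 0.005 and 0.0067, adjusted p = 0.016 and 0.02), r = 0.68 without the 2 farthest libraries, and 0.75, 0.57 and 0.71 within the dose, the DC-101 and the anti-PD1 experiment. Ccl12 and Ccr2 had r = 0.64 and rho = 0.64 (permutation p = 0.0052 and 0.0038, adjusted p = 0.016 and 0.014), r = 0.66 without the 2 farthest, and 0.68, 0.77 and 0.53 within experiments. Ccl2 and Ccr2 had r = 0.56 and rho = 0.53 (permutation p = 0.0083 and 0.013, adjusted p = 0.021 and 0.033) and r = 0.55 without the 2 farthest, but r was 0.19 within the dose experiment, beside 0.66 and 0.62.

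Ccl2 and Ccl12 had r = 0.67 and rho = 0.68 (permutation p = 0.0045 and 0.00073, adjusted p = 0.016 and 0.0055), r = 0.53 without the 2 farthest, and 0.53, 0.93 and 0.57 within experiments. Ccl7 and Ccl12 had r = 0.70 and rho = 0.70 (permutation p = 0.0021 and 0.0015, adjusted p = 0.016 and 0.0074), r = 0.58 without the 2 farthest, and 0.84, 0.91 and 0.52 within experiments. None of the 9 pairs that hold Ccl8 or Ccl11 passed. Ccl12 and Ccl8 had r = 0.35 and rho = 0.32 (permutation p = 0.21 and 0.18, adjusted p = 0.39 and 0.33), r = 0.08 without the 2 farthest, and 0.92, -0.20 and 0.37 within experiments. All values of a library share its depth and composition.

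**Figure D5:**
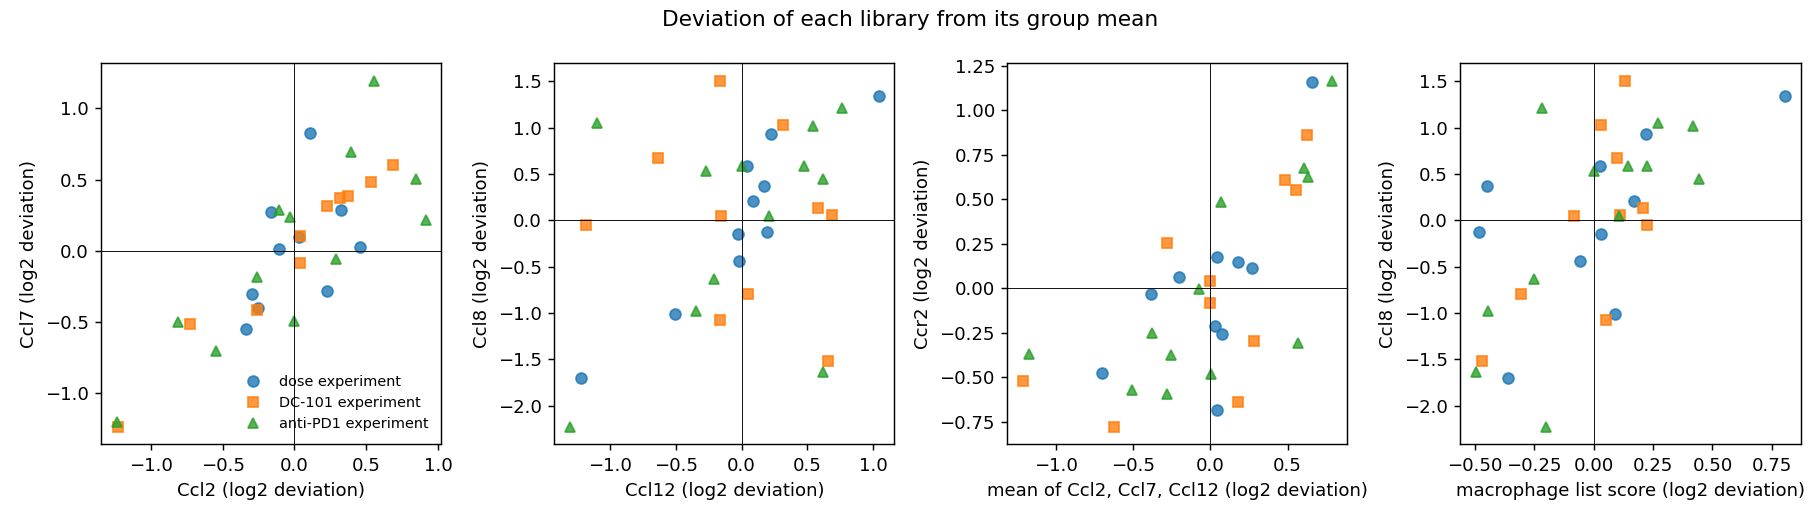
Deviation of each library from its group mean (both axes, log2 CPM or list score), with symbols for the 3 experiments. From left to right, r is 0.82 for Ccl2 and Ccl7, 0.35 for Ccl12 and Ccl8, 0.69 for the mean of Ccl2, Ccl7 and Ccl12 and Ccr2, and 0.62 for the macrophage score and Ccl8.

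The deviations were also set against 8 marker lists, for the mean of Ccl2, Ccl7 and Ccl12 and for Ccr2. Of these 16 relations, 0 passed by permutation and 0 had an unadjusted p under 0.05. The mean of the 3 ligands had r = 0.02 and rho = 0.08 with the macrophage score (permutation p = 0.94 and 0.74, adjusted p = 0.99 and 0.9), with 0.51, -0.34 and -0.08 within experiments and 0.20 without the 2 farthest libraries. It had r = -0.11 and rho = -0.04 with the monocyte score (permutation p = 0.66 and 0.85, adjusted p = 0.99 and 0.9), with 0.77, -0.37 and -0.31 within experiments and 0.10 without the 2 farthest. Ccr2 had r = 0.40 and rho = 0.28 with the macrophage score (permutation p = 0.15 and 0.23, adjusted p = 0.8 and 0.9), with 0.79, -0.23 and 0.45 within experiments and 0.14 without the 2 farthest.

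The other values of r with the mean of the 3 ligands ran from -0.20 for the endothelial list to 0.26 for the T cell and eosinophil lists, and those with Ccr2 from -0.18 for the neutrophil to 0.44 for the eosinophil list. Ccl8 was set against the same 8 lists after its values were seen, as a description. The largest r was 0.62, with the macrophage score, and 0.57, 0.64 and 0.69 within the dose, the DC-101 and the anti-PD1 experiment. It was 0.45 with the monocyte and -0.36 with the hepatocyte score. The other values ran from -0.16 for the neutrophil to 0.27 for the T cell list.

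Among 13985 genes whose log2 CPM averaged 0 or more, those most like the mean of Ccl2, Ccl7 and Ccl12 over the 32 libraries, with group means removed, were the cytokine gene Il7 (r = 0.78), the fatty acid receptor gene Gpr84 (0.74), 5430427O19Rik (0.74), Ch25h (cholesterol 25-hydroxylase, 0.73), Nfkbie (an inhibitor of NF-kB, 0.73), Rasl10a (0.72), Dennd2c (0.72), Tm4sf1 (0.72), Gdf3 (0.72) and Pdrg1 (0.70). Ccr2 was at rank 14 (r = 0.69), Ccl11 at rank 2779 (0.23) and Ccl8 at rank 3933 (0.16).

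Centred by experiment only, so that treatment differences count, the genes most like the mean of the 3 ligands were Gpr84 (r = 0.91), Ch25h (0.91), Oas1a (an antiviral enzyme, 0.88), Dennd2c (0.86), Adam17 (the protease that frees TNF, 0.85), Nfkbie (0.84), AI504432 (0.84), G530011O06Rik (0.84), Bcl2a1d (0.83) and 5430427O19Rik (0.83). The lists shared 5 of 10 genes. On this measure Ccr2 was at rank 30 (r = 0.79), while Ccl8 had r = -0.05 and Ccl11 r = -0.16. These are descriptions with no test.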

How the data were processed

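The 32 tumour RNA libraries were sequenced after stranded mRNA library preparation. The authors trimmed adapters with cutadapt 2.4, aligned to GRCm38 with STAR 2.7.2a and deposited raw counts per Gencode gene, without normalization. The strand column taken is not given in the sources used here. Groups and replicate numbers came from the labels. Gene positions came from a Gencode annotation of the same build (54409 of 54446 IDs matched).

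Each experiment had 1 fit of all its groups in edgeR 4.0.16 under R 4.3.3 (filterByExpr with minimum count 10 and minimum total count 15, TMM, robust quasi-likelihood F-test, 2-sided, Benjamini-Hochberg over all genes, threshold 0.05). The low dose was also fitted over 3 experiments with the experiment as a term. Log2 CPM used a prior count of 2. DESeq2 1.42.0 and limma 3.58.1 (voom) were alternatives, beside other scalings, no filter, a hepatocyte score covariate, a replicate block and leaving out each library. The code was tested on simulated data. Relations used 100000 permutations within groups, 2-sided. Libraries of a group differed by a chi-square of 9.31 per degree of freedom or more in all 36 pairs, and all were kept.

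The members and lists were chosen with earlier results of these data known. Named genes were the members, the genes around the cluster, the 10 most like Ccl2, Ccl7 and Ccl12 by each of 2 centrings, and up to 3 genes per direction of each list past the threshold, smallest p first. 1 gene of the receptor list is not reported here, and that list's counts leave it out.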

Additional observations from a re-analysis of the deposited data

Results flagged for a closer look

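Vehicle replicate 4 of the DC-101 experiment stood far below the other 3 libraries for both Ccl2 (3.12 log2 CPM) and Ccl7 (1.61 log2 CPM). The gap to the nearest library took 0.878 of the group's whole range for Ccl2 and 0.935 for Ccl7. The check covered 12 groups of 4 values (the 6 genes in each of 2 vehicle groups), and chance flags about 1 in 20 groups. Ccl2 and Ccl7 come from the same library. Without it, the log2 change with DC-101 was 1.18 for Ccl2 and 0.86 for Ccl7.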

How the results depend on the processing

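The high dose count of called genes was the least stable: 2582 genes against vehicle, but 282 with library totals, 5275 with DESeq2, 1349 with limma-voom, 416 with no filter, 188 with the hepatocyte covariate, 1 with the replicate block, 4 with only the groups compared, and 15 to 7030 without 1 library. High against low dose, 697 became 3059 with DESeq2, 198 with library totals, 309 with no filter, 1 with the block, 0 with only the groups compared and 62 to 4488 without 1 library. Over the 3 low dose experiments, 276 became 892 with DESeq2, 153 with no filter, 178 with the block, 63, 17 and 407 without the dose, the DC-101 and the anti-PD1 experiment, and 158 to 313 without 1 library. The 4 genes of the low dose in the DC-101 experiment became 1097 with DESeq2, 12 with no filter, 0 with the block and 0 to 12 without 1 library, and the 0 of the dose experiment became 85 with DESeq2 and 75 with only the groups compared.

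At the high dose against vehicle, Ccl8 lost its call with library totals (3.39), the replicate block (3.05) and only the groups compared (3.43), and was 2.64 to 3.88 without 1 library. Ccr2 lost it with the block (-3.25) and only the groups compared (-3.04), and was -3.86 to -2.75 without 1 library. Ccl11 turned sign with limma-voom (-0.61), the hepatocyte covariate (-0.51) and the block (-0.30), and was -2.26 to 0.68 without 1 library. Ccl7 was -2.06 to -1.28 and Ccl12 -2.60 to -1.58. High against low dose, Ccr2 lost its call with the block (-3.93) and only the groups compared (-3.73), while Ccl7 was -3.70 to -2.91 and Ccl12 -4.67 to -3.64.

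Over the 3 experiments, the call of Ccr2 was lost with RLE scaling and with no filter (1.04 each), the hepatocyte covariate (1), the block (0.93) and without the dose (1.22), DC-101 (1.22) or anti-PD1 (0.70) experiment, and it was 0.74 to 1.12 without 1 library. Ccl8 turned to -0.45 without the dose experiment. The cause was not tested.

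Of values that had not passed, Ccl8 at the low dose in the DC-101 experiment turned to 0.24 with the hepatocyte covariate (-1.03 to 0.37 without 1 library). Against DC-101, Ccl11 turned to 1.01 with limma-voom and 0.46 with the block (-0.86 to 2.82), and Ccr2 to 0.13 with limma-voom, 0.01 with the hepatocyte covariate and 0.03 with the block (-0.34 to 0.51). Ccl11 was -0.42 to 0.11 for the combination and -3.36 to 0.28 for DC-101 against vehicle without 1 library. Ccl7 at the low dose in the anti-PD1 experiment was 0.84 to 2.10. Deviations of same-numbered libraries correlated above 0.1 in 2 of 9, 4 of 9 and 6 of 18 pairs of the dose, the DC-101 and the anti-PD1 experiment, so a shared number was not taken as a pairing. The changes of Ccl2, Ccl7 and Ccl12 did not turn sign in any comparison and setting run. In the contrasts that selected these genes, the sign was largely fixed by the choice. Ccl7 with anti-PD1 against vehicle was as low as 0.00 without 1 library. Depth was lowest for Ccl11, with 3 to 197 counts per library.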
